A study of Mus musculus with 2 samples.

Results

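Matricellular and adhesive glycoproteins were examined in the mouse uterus at day 4 of pregnancy, when it is turning receptive to the embryo. The group was defined as 10 genes by symbol: Spp1, Sparc, Thbs1, Thbs2, Tnc, Postn, Ctgf, Cyr61, Fn1 and Vtn. All 10 were found among the 22740 genes of the deposited table, which uses the older symbols Ctgf for Ccn2 and Cyr61 for Ccn1. RNA was sequenced from the whole uterus of 2 C57BL/6 mice titled WT, 1 library per animal, called uterus 1 and uterus 2 here. No treatment, genotype contrast or second day exists in the design, and the age of the animals is not given in the labels. Values are the authors' RPKM, reads scaled to transcript length and library size, so levels of different genes can be set side by side.

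Fibronectin and vitronectin are adhesive glycoproteins: cells attach to them through integrins, receptors made of 1 alpha and 1 beta subunit. Matricellular proteins are secreted into the matrix but mainly modulate how cells respond to it, and many are known for high levels in tissue that is being remodelled. In the uterus around implantation, osteopontin (Spp1) is known as a secreted integrin ligand at the surface of the epithelium, and tenascin-C as a protein of the stroma next to the epithelium.

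The sequence through which several of these proteins bind integrins is the tripeptide arginine-glycine-aspartate, known as RGD. Coding sequences from GENCODE M1 (mouse build NCBIM37, the same assembly as mm9) were translated, the longest complete one of each gene, and searched in frame for it. Of the 10 genes, 5 held it, at 6 places. They are shown because RGD is a known binding motif for some, not all, of the integrins whose levels are given further on. Each line gives the coding strand, 5′ to 3′, of 39 spliced bases, with the 9 bases of the tripeptide in capitals.
Spp1: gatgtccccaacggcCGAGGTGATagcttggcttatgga
Fn1, first place: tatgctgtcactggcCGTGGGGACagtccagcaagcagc
Fn1, second place: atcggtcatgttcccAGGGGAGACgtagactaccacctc
Vtn: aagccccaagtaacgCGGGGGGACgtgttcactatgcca
Thbs1: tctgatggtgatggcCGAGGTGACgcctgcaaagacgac
Thbs2: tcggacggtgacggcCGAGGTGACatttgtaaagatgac

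On NCBIM37 the capitals lie at chr5:104868500-104868508 on the plus strand for Spp1, in exon 7 of 8. For Fn1 they lie at chr1:71653320-71653328 (exon 30 of 46) and chr1:71644017-71644025 (exon 40 of 46), both on the minus strand. For Vtn they lie at chr11:78313208-78313216 on the plus strand, in exon 3 of 8. For Thbs1 they lie at chr2:117948618-117948626 on the plus strand, and for Thbs2 at chr17:14808491-14808499 on the minus strand, in exon 18 of 22 in both genes. All are coding bases, and all 6 matched the genome sequence at those positions. The printed windows of Vtn, Thbs1 and Thbs2 cross an exon junction.

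The place of the motif differed between the genes. It began at codon 64 of 478 in Vtn, at codon 145 of 295 in Spp1, and at codons 1614 and 2181 of 2477 in Fn1. In the thrombospondin pair it stood at almost the same place, codon 927 of 1171 in Thbs1 and codon 928 of 1172 in Thbs2. The match was not found in the coding sequences used for Sparc, Tnc, Postn, Ctgf and Cyr61, which says only that these 3 residues do not stand together in them. Over 21370 genes with a complete coding sequence, 7.13% held the motif, and among the 2271 of 1000 codons or more, 22.1% did. A match is a description of the sequence and not a measured binding site.

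**Figure D1:**
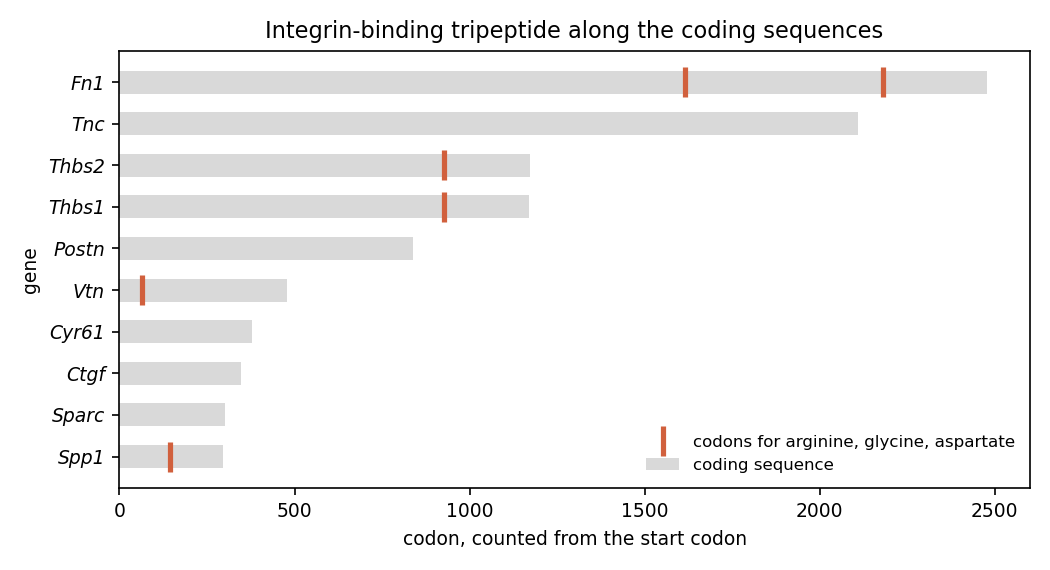
Coding sequences of the 10 genes drawn to scale as grey bars, in codons from the start codon, with a mark at each place that encodes arginine-glycine-aspartate. The 6 marks fall in 5 genes, from codon 64 in Vtn to codon 2181 in Fn1.

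Cysteine codons made up 11.2% of Ctgf and 10.03% of Cyr61, the cysteine-rich CCN pair, against 0.678% of Spp1 and a median of 2.14% over the 21370 genes. Coding sequences of Thbs1 and Thbs2 were identical at 70.0% of 3428 aligned bases, and those of Ctgf and Cyr61 at 65.8% of 1018. Even so, no stretch of 36 bases of Spp1, Sparc, Thbs1, Thbs2, Tnc, Postn, Ctgf, Cyr61 or Vtn occurred in a protein-coding transcript of another gene. In Fn1, 2.69% of such stretches also occurred in Apol7d, annotated across an Fn1 exon on the opposite strand. Apol7d was listed at 0.437 RPKM in uterus 1 and 0.197 in uterus 2. Exons of Ctgf and Tnc share bases with opposite-strand entries as well (Gm15270 and 8030451A03Rik, not analysed here). The use of strand in counting is not given in the sources used here, so reads of such pairs cannot be told apart.

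The libraries were of like size by their scaling totals, 3834174 in uterus 1 and 4256101 in uterus 2, recovered from the steps between the lowest values. Recovered reads of 16088 genes summed to more than these totals, 3907232 in uterus 1 and 4341815 in uterus 2. Either the totals are not the full read counts or some recovered reads are too high, which was not tested. Reads that are too high would make the counting intervals given further on too narrow. The 10 genes held 17635 reads in uterus 1 and 17549 in uterus 2. Marker genes of stroma, smooth muscle and epithelium, 5 of each, all lay above 10 RPKM in both libraries. In a whole organ, fewer cells of a type and less RNA per cell cannot be told apart. Where a p-value or an interval is given for the reads of these 2 libraries, it compares the libraries, not conditions. With 1 library per animal, animal and library preparation cannot be told apart.

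All 10 genes were detected at 1 RPKM or more in both uteri, where 58.4% of all genes were, and 6 of the 10 at 10 RPKM or more in both, where 30.4% of all genes were. Their levels spanned a wide range, from 4.04 RPKM for Vtn to 761 RPKM for Sparc in uterus 1, 189-fold, and 125-fold in uterus 2. The median of the 10 was 26.2 ± 1.30 RPKM (SD, n = 2), against 10.96 RPKM over the 13647 genes that averaged 1 RPKM or more. Together they held 0.294% of the summed RPKM of the table in uterus 1 and 0.266% in uterus 2. Sparc and Fn1 made up 79.8% ± 0.831 (SD, n = 2) of that.

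**Figure D2:**
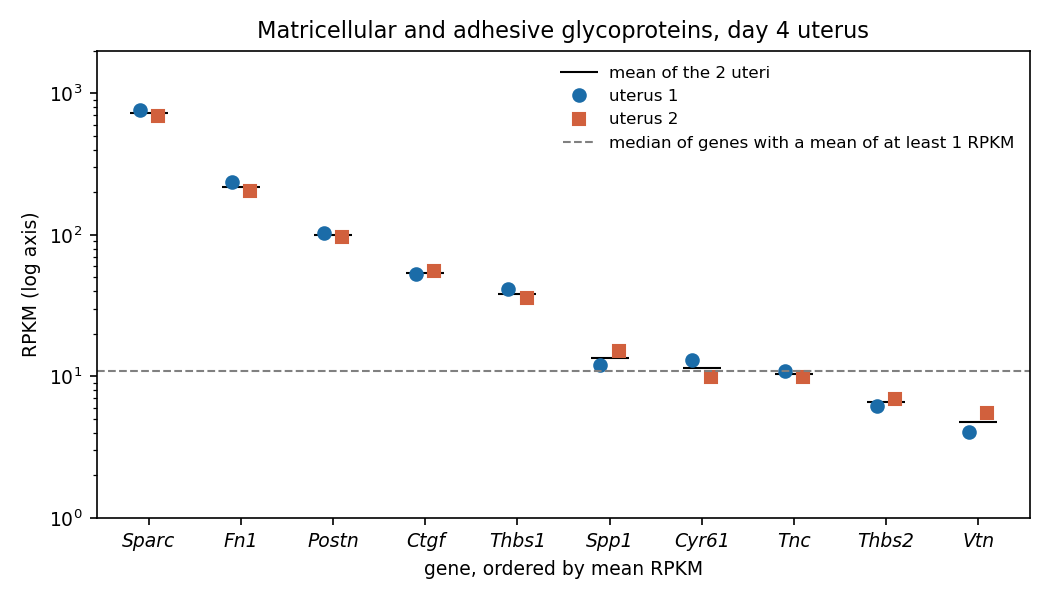
RPKM on a log axis of each gene in uterus 1 (circles) and uterus 2 (squares), with the mean as a bar; the dashed line is the median of genes that averaged 1 RPKM or more. Sparc and Fn1 stand highest in both uteri, and Tnc, Thbs2 and Vtn lie under the dashed line in both.

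Sparc, a collagen-binding glycoprotein that also modulates cell attachment, was the highest of the group. It lay at 761 RPKM in uterus 1 and 689 in uterus 2, from 6707 and 6738 reads, and ranked 73 of all 22740 genes by its mean. The gene (NM_009242) spans positions 55208003 to 55233582 of chromosome 11, minus strand, on NCBIM37. Its level was below that of the fibrillar collagen Col1a1, which lay at 1184 and 851 RPKM, and above that of the smooth muscle actin Acta2 at 653 and 592 RPKM. The protein-coding genes nearest to Sparc in level over the 2 libraries were the ribosomal protein genes Rps7 (718 and 699 RPKM) and Rps10 (725 and 729 RPKM).

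Fn1, which encodes fibronectin, followed at 235 RPKM in uterus 1 and 204 in uterus 2, rank 182. It carried the most reads of the 10 together with the longest transcript: 7590 and 7319 reads, and a length of 8425 bases that fits its values. Sparc exceeded it 3.24-fold in uterus 1 and 3.37-fold in uterus 2. Fn1 (NM_001276408) spans positions 71632047 to 71699808 of chromosome 1, minus strand. Spliced forms of fibronectin that differ in their included exons are not separated in the table, which gives 1 value per library. The genes nearest in level were Slc25a4, a mitochondrial carrier (218 and 206 RPKM), and Fstl1, a secreted relative of Sparc (217 and 199 RPKM).

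Vtn, the other adhesive glycoprotein, was the lowest of the 10. It lay at 4.04 RPKM in uterus 1 and 5.52 in uterus 2, from 27 and 41 reads. Vitronectin is known as a plasma protein made by the liver, and the gene (NM_011707, positions 78312622 to 78315827 of chromosome 11, plus strand) was 58.2-fold under Fn1 in uterus 1 and 37.0-fold under it in uterus 2. Of the 5 liver marker genes used for comparison, 1 was at 1 RPKM or more in both libraries, the thyroxine carrier Ttr at 4.27 and 5.39 RPKM. Apoa1 and Fgb were listed at 0 in both, Alb at 0 and 0.115 RPKM, and Serpina1e at 22.4 and 0 RPKM. The summed level of the 5 was 26.7 RPKM in uterus 1 and 5.50 in uterus 2, and without Serpina1e, a choice made after seeing the data, 4.27 and 5.50 RPKM. Their part in the level of Vtn was not tested.

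Postn encodes periostin, a matrix protein of fasciclin domains that binds collagen and integrins. It was the third highest gene, at 102 RPKM in uterus 1 and 96.0 in uterus 2, from 1293 and 1346 reads, rank 483. The gene (NM_015784) spans positions 54165029 to 54194963 of chromosome 3, plus strand. Ndufb9 (103 and 95.6 RPKM), which encodes a subunit of respiratory complex I, was the nearest gene in level. Likeness of level over 2 libraries was the only measure used to choose the nearest genes.

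Tnc, which encodes tenascin-C, lay far lower, at 10.8 RPKM in uterus 1 and 9.83 in uterus 2, from 295 and 297 reads. Postn exceeded it 9.44-fold and 9.77-fold, and Fn1 exceeded it 21.7-fold and 20.8-fold. These ratios differed little between the animals. The gene (NM_011607) spans positions 63620819 to 63708049 of chromosome 4, minus strand.

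The CCN genes encode cysteine-rich secreted proteins that bind integrins and heparan sulphate. Ctgf, connective tissue growth factor, lay at 52.8 RPKM in uterus 1 and 55.1 in uterus 2, from 486 and 563 reads, and had the smallest spread of the 10, an SD of 3.02% of its mean. Cyr61 lay at 13.0 and 9.85 RPKM on 101 and 85 reads. Ctgf exceeded Cyr61 4.06-fold in uterus 1 and 5.59-fold in uterus 2, and the values of the pair did not overlap. Ctgf (NM_010217) spans positions 24315248 to 24318488 of chromosome 10, plus strand, and Cyr61 (NM_010516) positions 145309935 to 145312949 of chromosome 3, minus strand.

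The thrombospondins Thbs1 and Thbs2 are trimeric glycoproteins that bind the receptors CD36 and CD47 and, in the case of thrombospondin-1, activate latent TGF-beta. Thbs1 lay at 41.3 RPKM in uterus 1 and 35.6 in uterus 2, from 919 and 879 reads, and Thbs2 at 6.21 and 6.94 RPKM on 141 and 175 reads. Thbs1 was the higher of the pair 6.65-fold in uterus 1 and 5.13-fold in uterus 2. Thbs1 (NM_011580) spans positions 117937658 to 117952869 of chromosome 2, plus strand, and Thbs2 (NM_011581) positions 14802507 to 14831269 of chromosome 17, minus strand. Thrombospondin-1 is also a major protein of platelets, and of 5 platelet marker genes Ppbp and Gp9 were listed at 0 in both uteri. The summed level of the 5 was 7.94 RPKM in uterus 1 and 3.82 in uterus 2, with Pf4 at 5.77 and 1.998 RPKM on 13 and 5 reads, and its part in the level of Thbs1 was not tested.

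Spp1, osteopontin, lay at 11.96 RPKM in uterus 1 and 15.02 in uterus 2, rank 5812. Its 76 and 106 reads rest on a length that fits its values but no annotated transcript, and so does the interval of its ratio given further on. It was 63.6-fold under Sparc in uterus 1 and 45.8-fold under it in uterus 2. The gene (NM_001204201) spans positions 104864130 to 104870072 of chromosome 5, plus strand. Spp1 is also known as a product of macrophages, and the 5 leukocyte markers summed to 79.5 RPKM in uterus 1 and 85.2 in uterus 2, with all 5 at 1 RPKM or more in both. Among the 4 that macrophages or other myeloid cells are known for, Emr1 (19.2 and 17.3 RPKM) and Cd68 (15.3 and 14.2 RPKM) had the lower value in uterus 2, and Csf1r (19.4 and 22.9 RPKM) and Itgam (7.91 and 9.13 RPKM) the higher one. Epithelial markers summed to 244 RPKM in uterus 1 and 279 in uterus 2. Their part in the level of Spp1 was not tested.

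Ordered by mean RPKM, the genes ran Sparc, Fn1, Postn, Ctgf, Thbs1, Spp1, Cyr61, Tnc, Thbs2, Vtn. In 7 of the 9 neighbouring pairs both values of the higher gene lay above both values of the lower one. The pairs that overlapped were Spp1 with Cyr61, which changed places between the animals, and Cyr61 with Tnc, which were 1.20-fold apart in uterus 1 and 1.00-fold apart in uterus 2. Spp1, Cyr61 and Tnc, at means of 13.5 ± 2.17, 11.4 ± 2.22 and 10.3 ± 0.713 RPKM (SD, n = 2), lay close together: the order of Spp1 and Cyr61, and of Cyr61 and Tnc, is not settled, while both values of Spp1 lay above both of Tnc. Of the pairs that did not overlap, Thbs2 over Vtn was the closest in uterus 2, at 1.26-fold.

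The other comparison was between the 2 animals, gene by gene. No gene of the 10 was 2-fold apart, as 2.6% of genes averaging 1 RPKM or more were, and in 3 the higher uterus was at least 25% above the lower on the scale of log2(RPKM + 0.1). Vtn and Spp1 were higher in uterus 2, as 11.5% of genes were, and Cyr61 was lower in uterus 2, as 12.8% were. In either direction the background was 24.3%, so 3 of 10 is close to what genes in general showed. The log2 differences of the 10 ran from -0.40 for Cyr61 to 0.44 for Vtn, with a median of -0.12, against 0.00067 over all genes that averaged 1 RPKM or more. Of the 10, 6 were lower in uterus 2.

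These 3 folds rested on few reads. The RPKM ratio of uterus 2 to uterus 1 was 1.37 for Vtn, with an exact 95% counting interval from 0.822 to 2.31. It was 1.26 for Spp1, with an interval from 0.927 to 1.71, and 0.758 for Cyr61, with an interval from 0.561 to 1.02. All 3 intervals include equality, so none of these differences was detectable at this depth.

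The differences larger than counting error were small ones in abundant genes. For Fn1 the ratio was 0.869, with an exact 95% counting interval from 0.841 to 0.897. For Sparc it was 0.905 (0.875 to 0.936), and for Thbs1 0.862 (0.785 to 0.946). All 3 were lower in uterus 2, and none of the 10 had an interval wholly above equality. Of 13607 genes tested, 8.5% had an interval wholly below equality, 7.97% wholly above it, and 16.5% either. An exact binomial test of the reads, Benjamini-Hochberg adjusted over the same genes, gave adjusted p-values of 3.04e-15 for Fn1, 9.01e-07 for Sparc and 0.035 for Thbs1, where 5.57% of genes had one under 0.05. Those of the other 7 were 0.361 or more. Calls of this kind come with depth: of genes with at least 1000 reads in sum, 39.3% had an interval that excludes equality, and the 3 genes were among 5 of the group at that depth. The others were Postn, at 0.938 (0.868 to 1.01), and Ctgf, at 1.04 (0.923 to 1.18). Among genes within 2-fold of its level, 37.3% of 110 were at least as far apart between the uteri as Sparc, 23.3% of 305 as Fn1 and 24.1% of 3395 as Thbs1. So these differences exceeded the counting error of the libraries but were ordinary in size for genes of like abundance. Tnc, at 0.907 (0.769 to 1.07), and Thbs2, at 1.12 (0.891 to 1.41), were not distinguishable between the libraries.

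**Figure D3:**
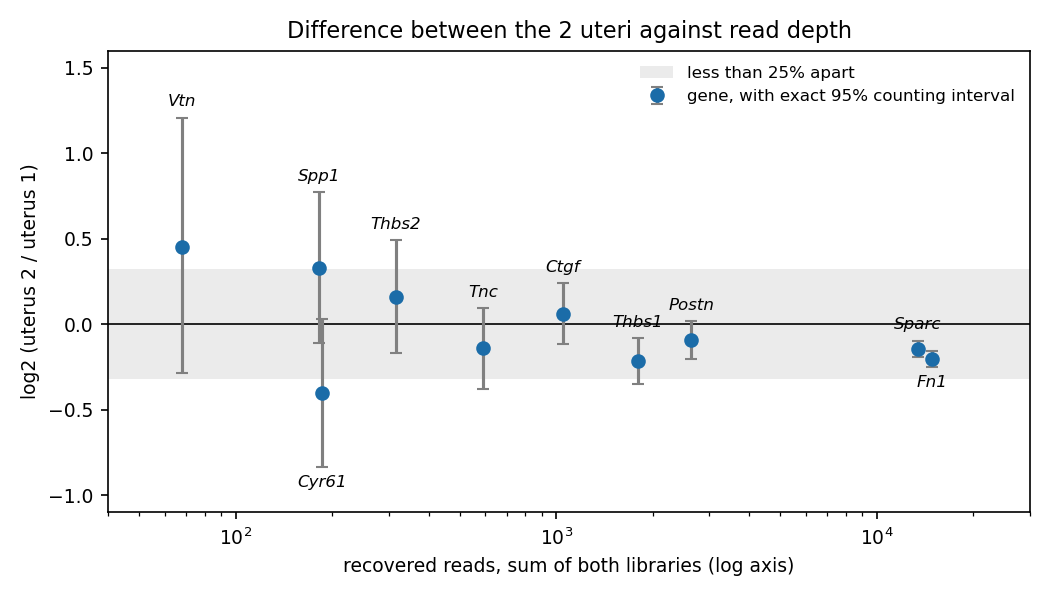
Difference between the uteri, log2 of the RPKM ratio of uterus 2 to uterus 1, against the reads behind each gene on a log axis; bars are exact 95% counting intervals and the shaded band holds differences under 25%. The largest ratios belong to the genes with the fewest reads, and only the intervals of Fn1, Sparc and Thbs1 exclude equality.

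Marker genes differed between the same libraries. Col1a1 had a ratio of 0.718 (0.704 to 0.733), and the pericyte markers Pdgfrb, Notch3 and Cspg4 had ratios of 0.807, 0.645 and 0.766 with intervals below equality. The interval of the other pericyte marker, Rgs5, included equality, at 0.965 (0.908 to 1.02). Of all genes, 8.5% had an interval below equality. Among genes with at least 1000 reads in sum, as Pdgfrb and Notch3 had, 39.3% excluded it on either side. The 4 pericyte markers summed to 199 RPKM in uterus 1 and 177 in uterus 2. The 5 stroma markers summed to 3917 and 3756 RPKM, but 3 of them, Dcn, Pdgfra and Col3a1, had intervals above equality, at ratios of 1.27, 1.07 and 1.02. All 5 had at least 1000 reads in sum, where 39.3% of genes excluded equality. Smooth muscle markers had 1 of 5 on each side, Acta2 at 0.907 (0.876 to 0.939) and Myh11 at 1.12 (1.08 to 1.15), both also at that depth. Epithelial markers had 3 of 5 intervals above equality and none below, where 7.97% and 8.5% of all genes had one. Endothelial markers had 2 of 5 below, Kdr at 0.724 (0.632 to 0.830) and Vwf at 0.732 (0.635 to 0.843). Intervals of Pecam1, Cdh5 and Tek, at ratios of 1.00, 1.04 and 1.04, included equality, so the endothelial list was not lower as a whole. Leukocyte markers had 2 of 4 tested above, Csf1r at 1.18 (1.01 to 1.38) and Ptprc at 1.22 (1.07 to 1.39). Those of Cd68 and Itgam, at ratios of 0.931 and 1.15, included equality. The part of these cell populations in the differences of Fn1, Sparc and Thbs1 was not tested.

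Relatives from the same families were taken from lists of 24 genes in all, of which 12 were at 1 RPKM or more in both uteri and 9 at 10 RPKM or more in both, where 58.4% and 30.4% of all genes were. Within the SPARC family, 5 of 7 relatives exceeded 10 RPKM in both. Sparcl1, also known as hevin, lay at 290 and 330 RPKM, Fstl1 at 217 and 199 RPKM and Smoc2 at 65.3 and 61.1 RPKM. Sparc exceeded Sparcl1 2.63-fold in uterus 1 and 2.09-fold in uterus 2. The ratio of uterus 2 to uterus 1 was 1.14 (1.09 to 1.19) for Sparcl1, on the other side of equality from Sparc, and below it 0.919 (0.873 to 0.967) for Fstl1 and 0.823 (0.745 to 0.910) for Smoc1. These were 1 above and 2 below of 5 relatives tested, beside 7.97% and 8.5% of all genes, and 39.3% on either side among genes with at least 1000 reads in sum. Spock1 and Spock3 lay under 1 RPKM, on 1 to 4 reads a library.

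Spp1 stood alone in its family. Osteopontin belongs to the SIBLING proteins, known from bone and tooth, and none of its 4 relatives reached 1 RPKM. Ibsp, Dspp and Mepe were listed at 0 in both uteri, and Dmp1 at 0 and 0.0851 RPKM. A listed 0 in these files was not read as absence.

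Among thrombospondins, Thbs3 lay at 34.4 RPKM in uterus 1 and 40.8 in uterus 2. It was thus at the level of Thbs1, under it in uterus 1 and over it in uterus 2, and exceeded Thbs2 5.54-fold and 5.88-fold. Its ratio of uterus 2 to uterus 1 was 1.19 (1.04 to 1.35). Thbs4 lay at 1.38 and 1.10 RPKM, and Comp, known from cartilage, at 0.645 and 0.581 RPKM. Per length, Thbs1 and Thbs3 were the highest thrombospondin genes in both uteri.

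Tenascin-C was not the highest tenascin. Tnxb, which encodes tenascin-X, a tenascin of loose connective tissue, lay at 55.7 RPKM in uterus 1 and 48.7 in uterus 2, above Tnc 5.14-fold and 4.95-fold. Its ratio of uterus 2 to uterus 1 was 0.875 (0.822 to 0.931). Tnxb had at least 1000 reads in sum, where 39.3% of genes excluded equality. Tnn was listed at 0 in both uteri, and Tnr, the tenascin of nervous tissue, at 0 and 0.0871 RPKM. Of the genes that share fasciclin domains with Postn, Tgfbi lay at 31.1 and 28.7 RPKM and the scavenger receptor genes Stab1 at 24.0 and 22.1 RPKM and Stab2 at 0.417 and 0.433 RPKM. Postn exceeded Tgfbi 3.29-fold and 3.35-fold. In the CCN family, Wisp1 lay at 7.69 and 8.56 RPKM and Nov at 8.16 and 7.15 RPKM, both under Cyr61 in either uterus. Wisp2 and Wisp3 lay under 1 RPKM on 1 to 4 reads. Beside Thbs3 and Tnxb, the relatives tested in these families were Thbs4, Tgfbi, Stab1, Wisp1 and Nov. Their intervals included equality, at ratios of 0.795, 0.923, 0.918, 1.11 and 0.877. Of all genes, 16.5% had an interval that excludes it.

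Of 25 integrin subunit genes, 24 were at 1 RPKM or more in both uteri, beside 58.4% of all genes. Itga11 lay just under it at 0.687 and 0.666 RPKM. The beta subunits were led by Itgb1, which pairs with many alpha subunits, at 158 RPKM in uterus 1 and 163 in uterus 2. Itgb5 lay at 28.4 and 28.0 RPKM, Itgb3 at 17.96 and 17.1 RPKM, Itgb8 at 12.4 and 12.4 RPKM and Itgb6 at 1.63 and 2.25 RPKM. These 4 pair with the alpha-v subunit in receptors for the RGD motif. Itgb1 exceeded Itgb5 5.54-fold and 5.81-fold.

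Among alpha subunits, Itga6 was highest at 39.5 and 37.7 RPKM, a laminin receptor subunit. Itgav, the alpha-v subunit, lay at 27.6 RPKM in uterus 1 and 23.1 in uterus 2. Itga1, a collagen receptor subunit, lay at 21.6 and 21.8 RPKM. Itga5, which with Itgb1 forms the main fibronectin receptor, lay at 21.5 and 17.9 RPKM. Itga8, whose product also binds the motif, lay at 8.71 and 8.25 RPKM. Itga9 and Itga4, whose products bind osteopontin or fibronectin at other sites, lay at 13.2 and 12.3 RPKM and at 6.31 and 6.09 RPKM. Intervals of the ratio of uterus 2 to uterus 1 lay below equality for Itgav, at 0.837 (0.754 to 0.929), and Itga5, at 0.831 (0.714 to 0.967), and above it for Itgae, at 1.77 (1.07 to 2.98). These were 3 of 16 alpha subunits tested, beside 16.5% of all genes. Of 8 beta subunits, 2 had such an interval, Itgb4 at 0.614 (0.491 to 0.767) and Itgb7 at 1.48 (1.03 to 2.14).

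The receptors outside the integrins, 8 genes, were all at 10 RPKM or more in both uteri, beside 30.4% of all genes. Lrp1, which takes up thrombospondins and binds CCN proteins, was highest at 96.2 RPKM in uterus 1 and 84.5 in uterus 2. Sdc4, a heparan sulphate co-receptor for fibronectin, lay at 53.9 and 56.6 RPKM. The thrombospondin receptors Cd36 and Cd47 lay at 45.0 and 55.9 RPKM and at 50.4 and 49.1 RPKM, and the osteopontin and hyaluronan receptor Cd44 at 18.4 and 16.7 RPKM. The ratio of uterus 2 to uterus 1 was 1.24 (1.12 to 1.37) for Cd36 and 0.878 (0.846 to 0.912) for Lrp1, the 2 of the 8 whose intervals exclude equality, beside the same 16.5%.

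**Figure D4:**
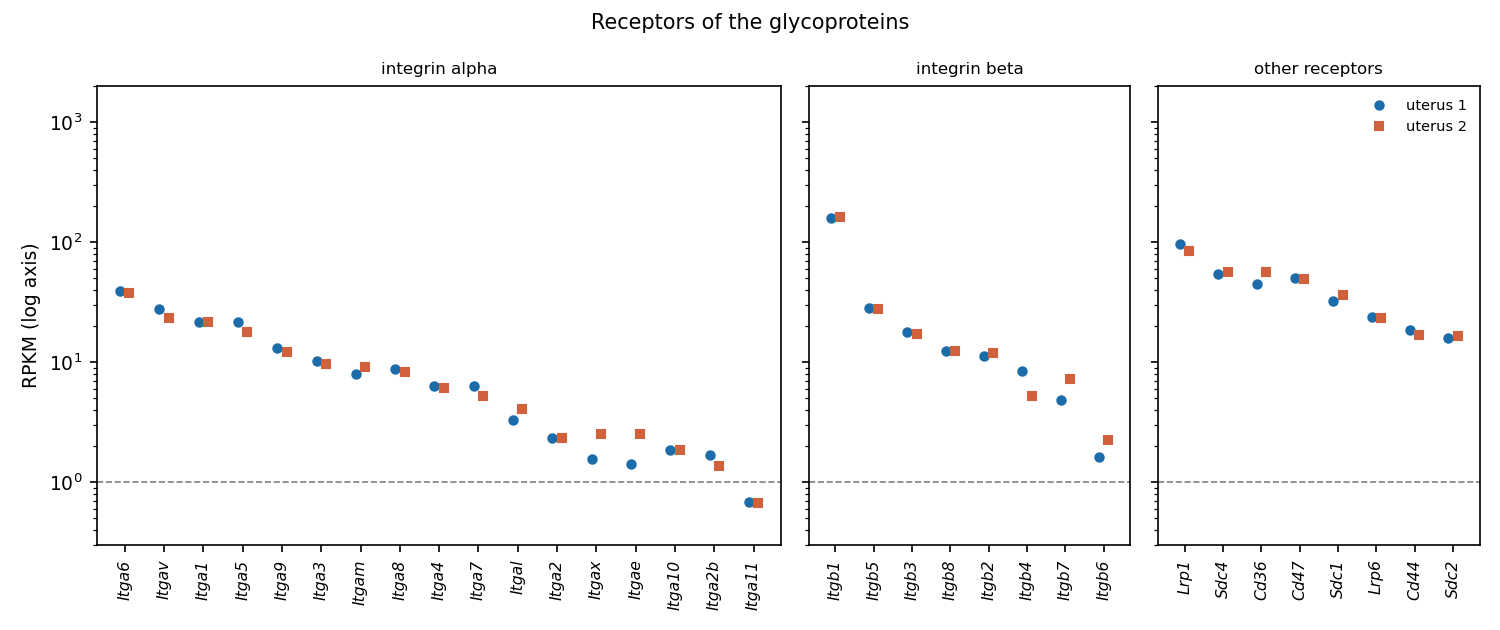
RPKM on a log axis of integrin alpha subunits, integrin beta subunits and other receptors in uterus 1 (circles) and uterus 2 (squares), with a dashed line at 1 RPKM. Itgb1 is the highest receptor gene, and Itga11 is the one below the line in both uteri.

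Of 13 partners and processing enzymes, 12 were at 1 RPKM or more in both uteri, beside 58.4% of all genes. Tgm2, the transglutaminase that cross-links fibronectin and osteopontin, was highest at 175 and 177 RPKM, followed by the gelatinase Mmp2 at 164 and 164 RPKM and the membrane metalloproteinase Mmp14 at 109 and 93.1 RPKM. Of the 12 tested, 4 had an interval below equality, Mmp14, Mmp11, Plau and Plaur, and none above, where 8.5% and 7.97% of all genes had one. Plau, the urokinase gene, had the largest difference of them: 10.4 RPKM in uterus 1 and 4.91 in uterus 2, from 93 and 49 reads, a ratio of 0.475 (0.329 to 0.678). Its receptor gene Plaur, whose product also binds vitronectin, lay at 8.03 and 4.54 RPKM, a ratio of 0.566 (0.336 to 0.937). Plau and Plaur were named here after their values were seen.

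The last list held genes of TGF-beta signalling and of the YAP and TEAD proteins, through which Ctgf, Cyr61 and other members are known to be controlled. Not all of its genes are regulators, since Ankrd1 is a target. Of the 15 genes, 13 were at 1 RPKM or more in both uteri, beside the same 58.4%. The receptor gene Tgfbr2 was highest at 98.5 and 96.2 RPKM, then the co-activator genes Yap1 at 45.5 and 37.9 RPKM and Wwtr1 at 31.5 and 31.8 RPKM. Of the 14 tested, Yap1 and Tead1 had intervals below equality, at ratios of 0.833 (0.749 to 0.926) and 0.758 (0.674 to 0.852), and Smad2 above it, at 1.19 (1.02 to 1.40), again beside 16.5% of all genes. Tead1 and Smad2 were named after their values were seen. Ankrd1, a target of the same co-activators as Ctgf and Cyr61, was listed at 0.148 RPKM in uterus 1 and 0 in uterus 2.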

How the data were processed

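Whole-uterus RNA of 2 mice on day 4 of pregnancy, 1 group, was analysed. The authors deposited RPKM values per gene and library, per the labels' design text, from poly-A purified RNA. The submitters' processing notes name TopHat, edgeR and mm9, with no role. The counting program, annotation, read length and use of strand are not given in the sources used here. Both tables hold the same values for all 22740 genes, and deposited starts were read as counted from 0 (11970 of 20733 matched genes start 1 base later in GENCODE M1, 779 at the same base) and are printed counted from 1.

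Reads were recovered from the RPKM steps of single-exon genes. With a tolerance of 0.01 reads, 94.3% of 458 further values in uterus 1 and 93.7% of 474 in uterus 2 came out whole. Each gene's ratio then gave whole reads times a common factor, chosen so that the length came nearest an annotated one. For the members other than Spp1 the factor was 1. Their lengths equalled that of the annotated transcript set beside them for Cyr61 and Thbs2, and nearly so for Sparc, Ctgf, Tnc and Vtn. They differed more for Fn1 (8425 against 8312 bases), Postn (3295 against 3202) and Thbs1 (5802 against 5848). For Spp1 a factor of 2 was chosen (length 1658), since the smaller length of 829 is shorter than its 888 coding bases; neither matches an annotated transcript (1507 bases for the longest), so its reads and interval are uncertain. Ratios carry exact Clopper-Pearson 95% intervals, which hold no error beyond counting, PCR duplicates not being separate molecules. The functions were tested on simulated data. Gene lists, the members and the rule for named genes (every member, receptors that pair with one, the 3 highest of each list, and the 2 nearest in level to each of the 3 highest members) were chosen with earlier results of these data known. Itga11, Itgae, Itgb4, Itgb7, Mmp11, Plau, Plaur, Tead1, Smad2, Ankrd1, Smoc1, Spock1, Spock3, Wisp2, Mepe, the genes that overlap a member's exons and the marker genes were named after their values were seen. A gene nearest in level and a gene of the partner list are not reported here. With 1 group no test between groups exists. Tools were Python 3.11.15, numpy 2.4.6, pandas 2.3.3, scipy 1.17.1 and Biopython 1.88.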

Additional observations from a re-analysis of the deposited data

How the results depend on the processing

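The members detected in both libraries numbered 10 at thresholds of 0.5, 1 and 2 RPKM, on the TPM scale and in either library alone, and 6 at 10 RPKM. The median level was 62.1 on the TPM scale, which changes the unit. In either library alone it was 25.3 to 27.2 RPKM. The share of summed RPKM was 0.329% over NM_ rows only, against 0.280% over all rows, because the non-coding rows leave the sum; it was 0.266% to 0.294% in either library alone. None was 1.5-fold or 2-fold apart (0 of 10 at each threshold). At least 25% apart were 3, and 2 with a pseudocount of 1 or at a mean of at least 10 RPKM. The same count of 3 intervals excluded equality with the smallest possible reads, after adjustment and after centring, settings chosen after seeing the data. All 40 recomputed log2 ratios of the members under other pseudocounts, centring and the TPM scale kept their sign and stayed inside the counting interval. Protein sequences were not used here; coding sequences were translated instead. No paired analysis was possible because all samples form 1 group. Leaving out a library leaves no ratio, and at 27 to 106 reads a library, differences of 25% were not detectable for Vtn, Spp1 and Cyr61.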
